A study of Mus musculus with 6 samples.

Results

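The immediate early response genes described here are Egr1, Egr2, Egr3, Ier2, Ier3, Ier5, Nr4a1, Dusp1, Zfp36 and Srf. They are a chosen part of this class, without the genes of AP-1 subunits, and not the whole of it. They were taken as a list of names, with no threshold on their values, and Ensembl gene IDs were matched to symbols. The list was chosen with earlier results of these data known, so its counts are not independent of them. They are 10 of the 55401 genes in the count files and 10 of the 18539 genes that passed the filter on low counts, so each of them was tested.

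Bulk RNA-Seq of poly(A) RNA was performed on NIH3T3 cells, an immortalized line of mouse embryo fibroblasts grown in medium with fetal bovine serum. EV cells carried the empty vector and received DMSO (2 libraries), and TC cells expressed TAZ-CAMTA1 and received DMSO (1 library). TC + ATA cells expressed TAZ-CAMTA1 and received 10 μM aurintricarboxylic acid (ATA) for 48 h (3 libraries). TAZ-CAMTA1 (TC) is the fusion protein of epithelioid hemangioendothelioma, which keeps the part of TAZ that binds TEAD transcription factors, and ATA was studied as a compound that disrupts the TAZ-TEAD complex. All cells were seeded 16 h before the medium was replaced with medium that held DMSO or ATA, so the genes were read at 1 time point and not in a time course after a stimulus. Whether the TC cells are 1 clone or a pool, and which promoter drives the fusion, is not given in the sources used here. No library of EV cells with ATA was analysed here, and TC versus EV rests on 1 TC library. The labels do not say whether replicates came from separate cultures, so the p-values measure the spread between these samples only.

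Immediate early genes are transcribed within minutes of a signal such as serum or a growth factor, without new protein synthesis, from promoters that are held by factors already in the cell. SRF, bound to CArG boxes with ELK factors or with myocardin-related factors, and CREB, bound to cAMP response elements (CRE), are the usual receivers of the signal, mostly through MAP kinases. The mRNAs are short-lived, many through AU-rich elements in the 3′ untranslated region (UTR), and several of the products limit the response: DUSP1 dephosphorylates MAP kinases and ZFP36 promotes the decay of AU-rich mRNAs. In growing fibroblasts these genes are known to keep a basal level that depends on serum, attachment and density.

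The promoter windows show which of these elements lie next to a RefSeq start of the genes that have a window. For Dusp1, Nr4a1 and Zfp36 that start lies inside the GENCODE gene span given further below, not at its end. RefSeq promoter windows (GRCm38.p6, 250 bases before to 50 bases after each annotated start, 300 bases in all) were matched for 7 of the 10 genes, with 5 windows for Egr2. Egr1, Egr3 and Ier2 had no window here, so their promoters were not searched. A window with a CArG box, CC then 6 bases of A or T then GG, was found for 3 of the 7 genes, Egr2, Srf and Zfp36, and for 1.81% of the 27025 genes with a window. The box is a palindromic pattern, so 1 match counts for both strands. The 5 distinct boxes are given with 10 bases on each side, in the direction of the gene and with the box in capitals, because they are the binding pattern of SRF, which is a member itself.
Egr2, chr10:67537484-67537513 (+ strand), box at -72: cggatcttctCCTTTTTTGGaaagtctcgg
Egr2, chr10:67537787-67537816 (+ strand), box at -72: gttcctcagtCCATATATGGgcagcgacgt
Srf, chr17:46556225-46556254 (- strand), box at -82: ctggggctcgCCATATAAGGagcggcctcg
Srf, chr17:46556205-46556234 (- strand), box at -62: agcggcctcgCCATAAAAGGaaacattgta
Zfp36, chr7:28379267-28379296 (- strand), box at -58: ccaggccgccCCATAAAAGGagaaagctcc
Each Egr2 box is given from the first annotated start whose window holds it. The second Egr2 box also lies at -73 and -133 from other annotated starts of the gene. The Srf pair lies side by side. The 10 bases of the second Srf box and of the Zfp36 box are identical.

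The bases from 250 to 51 before the start are given for Egr2 (start C of the plot of motif positions) and Nr4a1, which were lower in TC cells, and for Dusp1 and Ier3, which were higher. Capitals mark the CArG box, the short CRE motif TGACG, the ETS motif CCGGAA and the TEAD motif GGAATG on either strand, and adjoining matches run together.
Egr2, chr10:67537619-67537818 (+ strand): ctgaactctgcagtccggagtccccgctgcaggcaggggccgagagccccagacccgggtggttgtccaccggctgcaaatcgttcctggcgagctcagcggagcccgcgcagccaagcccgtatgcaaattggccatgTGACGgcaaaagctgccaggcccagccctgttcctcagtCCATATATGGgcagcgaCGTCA
Nr4a1, chr15:101266596-101266795 (+ strand): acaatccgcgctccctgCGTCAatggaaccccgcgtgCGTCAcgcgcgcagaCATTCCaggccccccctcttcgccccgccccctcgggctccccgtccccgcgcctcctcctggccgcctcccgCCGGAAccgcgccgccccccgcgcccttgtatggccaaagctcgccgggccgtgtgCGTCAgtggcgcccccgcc
Dusp1, chr17:26508523-26508722 (- strand): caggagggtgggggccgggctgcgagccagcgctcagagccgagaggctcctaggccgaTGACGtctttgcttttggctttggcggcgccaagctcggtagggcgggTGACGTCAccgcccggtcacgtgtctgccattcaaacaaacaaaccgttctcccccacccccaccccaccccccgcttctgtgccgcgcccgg
Ier3, chr17:35821463-35821662 (+ strand): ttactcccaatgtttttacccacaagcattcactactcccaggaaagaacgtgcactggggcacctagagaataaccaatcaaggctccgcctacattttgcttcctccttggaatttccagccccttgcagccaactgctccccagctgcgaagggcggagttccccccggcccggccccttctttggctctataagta
The Dusp1 window holds the full CRE, TGACGTCA, which contains the short motif on each strand and occurs in a window of 2.03% of genes. The short motif was found for 4 of the 7 genes, Egr2, Nr4a1, Dusp1 and Srf, against 23.0% of genes, and the Nr4a1 window holds 4 of them.

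Other motifs were searched on both strands in the same windows. The ETS motif was found for 4 of the 7 genes (16.7% of genes), the TEAD motif for Egr2 and Nr4a1 (16.6%), the EGR motif GCGNGGGCG for Zfp36, Nr4a1 and Srf (6.27%), and the NF-kB motif for Egr2, Nr4a1 and Ier3 (9.55%). The SP1 motif GGGCGG, which can overlap an EGR match, was found for 7 of the 7 genes (38.2%). The AP-1 motif TGANTCA (8.97%) and, on the sense strand, the TATA letters TATAAA (9.77%) were found for 0 of the 7. These matches describe letters, and binding was not measured in these samples.

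**Figure D1:**
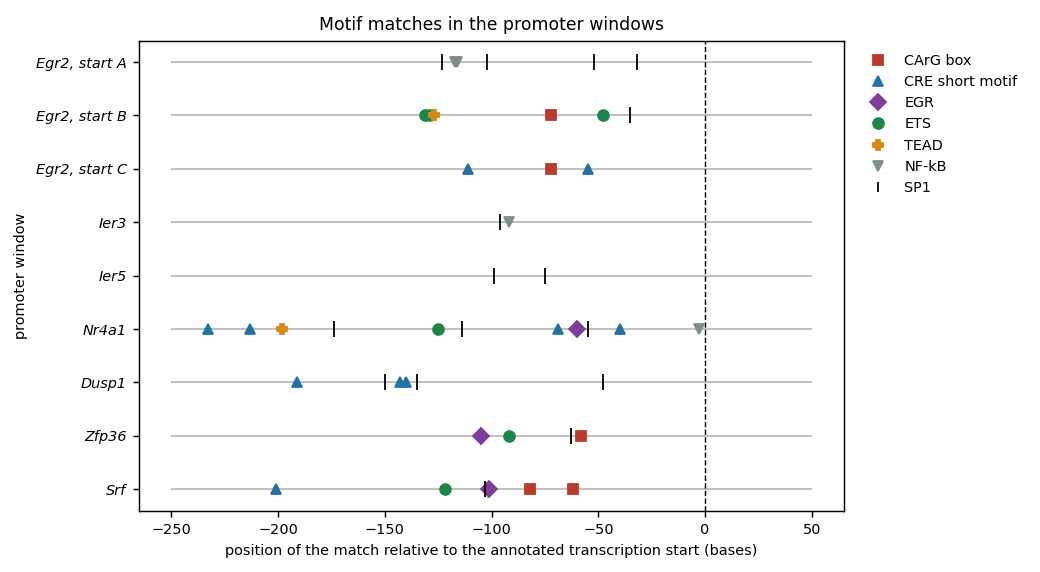
Positions of motif matches in the promoter windows of the 7 genes with a RefSeq window. The x axis is the distance from the annotated start in bases (dashed line at 0), each row is a window, and 3 of the 5 Egr2 starts are drawn, without 2 that lie next to start C; the CArG boxes lie between -82 and -58.

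Most of the genes have few exons. With 2 exons or fewer, 7 of the 10 stand against 8.14% of the 14029 protein-coding genes tested, and the median number of exons was 2 in the members and 9 in all of them. An ATTTA pentamer in the 3′ UTR was found in 9 of the 10 (63.4% of all), with a median density of 2.57 per kb of 3′ UTR against 1.16. Ier3 had the highest density of the members (8.16 per kb) and Ier2 had no pentamer. The longer AU-rich nonamer TTATTTATT, the kind of site that ZFP36 binds, was found in 3 of the 10 (7.0% of all), and the 4 sites are given in the RNA's direction, written as DNA, with the nonamer in capitals.
Dusp1, 3′ UTR position 103: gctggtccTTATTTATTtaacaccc
Dusp1, 3′ UTR position 392: ttttacctTTATTTATTtttgtgta
Zfp36, 3′ UTR position 589: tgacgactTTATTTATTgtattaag
Srf, 3′ UTR position 44: ggcaccacTTATTTATTgttgcctt
Positions count from the first base of the 3′ UTR of the annotated transcript. The Zfp36 mRNA thus carries the pattern that its own protein recognizes.

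The libraries held 58471484 to 74413193 counts each (median 71053010). The limit that a count of 0 allows, 3 counts, is 0.0403 to 0.0513 counts per 1000000 counts of the library (CPM). No pair of libraries agreed within sampling noise. The chi-square per degree of freedom, which is near 1 where only counting error separates a pair, was 61.3 for the EV pair, 5.86 to 6.61 for the TC + ATA pairs, and 22.8 to 24.7 for TC against TC + ATA. The 8 fibroblast markers summed to 14697 to 19379 CPM in every library, with 2 of them higher (Col1a1 and Vim) and 3 lower (Pdgfra, Thy1 and Fn1) in TC versus EV. The epithelial, endothelial and immune markers summed to at most 3.75, 2.64 and 8.51 CPM, and the muscle markers, most of it from Des, to 27.0 to 43.0 CPM. The 6 heat shock genes summed to 1144 to 1213 CPM in EV, 2461 in TC and 2110.1 to 2215 in TC + ATA, and the share of mitochondrial counts was 1.15% to 1.6%, 1.84% and 1.72% to 2.11%. Their part in the results below was not tested.

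Levels are given as CPM after TMM scaling, and gene positions are those of GENCODE M21 on GRCm38. Per kb of exonic sequence, which allows levels of different genes to be compared, Ier3 had the highest mean level over the 6 libraries (68.5 CPM per kb, the 95.8 percentile of the genes tested). Egr1 (55.2), Ier5 (49.4), Ier2 (47.7) and Srf (36.2) followed on the same scale, then Dusp1 (21.9), Nr4a1 (16.0) and Zfp36 (10.0). Egr3 (3.91, the 55.5 percentile) and Egr2 (1.43, the 41.6 percentile) were the lowest. The order depended on the cells: in EV cells Egr1 (79.3 CPM per kb) and Ier2 (77.5) stood first and Ier3 was at 33.2, whereas in TC cells Ier3 (85.7) stood first and Egr1 was at 31.9.

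TC versus EV asks what the fusion protein changed. Of the 10 genes, 4 fell (Egr1, Egr2, Ier2 and Nr4a1) and 2 rose (Ier3 and Dusp1) at an adjusted p of at most 0.05 (edgeR quasi-likelihood test fitted to the 6 libraries together, with p-values adjusted after Benjamini and Hochberg over all genes tested). Of all genes tested, 13.2% fell and 14.8% rose by the same rule, 28.0% in all. That split depends on the scaling: with library size scaling in place of TMM, 3159 genes fell and 2072 rose (2456 and 2735 with TMM), and of the 6 genes only Dusp1 lost its call. None of the 10 reached an absolute log2 fold change of 2 as well, which 3.64% of all genes did. The TC library lay below both EV libraries for 6 of the 10 genes (40.0% of all genes) and above both for 2 (38.9%), 8 in all (78.9%). In bulk RNA, fewer cells that express a gene and less RNA per cell cannot be told apart.

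**Figure D2:**
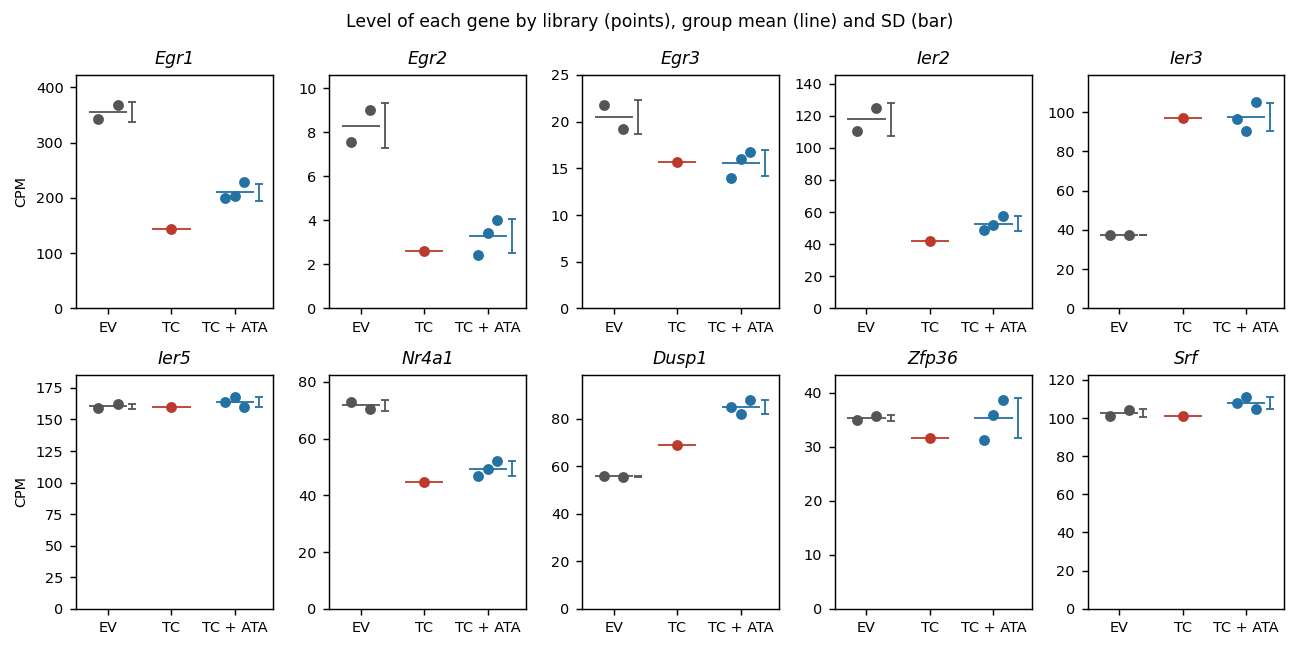
CPM of the 10 genes in each library (points), with the group mean (line) and SD (bar at the right of EV, n = 2, and TC + ATA, n = 3; TC has 1 library and no SD). Egr1, Egr2, Ier2 and Nr4a1 lie highest in the EV libraries, Ier3 and Dusp1 lowest, and Ier5 and Srf have overlapping EV and TC values.

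Egr1 encodes the zinc finger transcription factor that gave the EGR family its name, and is a standard readout of growth factor signaling (ENSMUSG00000038418, chr18:34859823-34864984, + strand, 2 exons). Its level was 343 and 368 CPM in the EV libraries, 143 in TC, and 199, 204 and 228 in TC + ATA. The 3 groups did not overlap, with TC lowest and TC + ATA between TC and EV. Egr1 fell 2.49-fold in TC versus EV (log2 fold change -1.31, SE 0.11, edgeR adjusted p = 3.27e-05).

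Egr2, or Krox20, is the EGR factor known for its role in myelinating Schwann cells (ENSMUSG00000037868, chr10:67535475-67542188, + strand, 2 exons). It was expressed at 7.58 and 9.02 CPM in EV, 2.59 in TC, and 2.45, 3.41 and 4.01 in TC + ATA. The EV libraries stood above all others and TC lay within the TC + ATA values, which had a range of 0.61 in log2(CPM + 0.5), wider than that of 96.4% of genes tested. Egr2 fell 3.2-fold in TC (log2 fold change -1.68, SE 0.29, edgeR adjusted p = 0.00231), the largest change of the 10 genes in size and the one with the widest interval (-2.33 to -1.03).

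Egr3, known for its role in muscle spindle development, lies at chr14:70077203-70082614 (ENSMUSG00000033730, + strand, 2 exons). Its values were 21.8 and 19.2 CPM in EV, 15.7 in TC, and 14.0, 16.0 and 16.7 in TC + ATA. EV was above the other libraries, but by less than for its relatives. Its log2 fold change from EV to TC was -0.39 (95% interval -0.7 to -0.08) and did not pass the test (edgeR adjusted p = 0.0658). It passed without EV replicate 2 (0.0115), with library size scaling (0.0322) and with no filter on low counts (0.0378).

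NAB1 and NAB2 are the corepressors that bind EGR proteins and block their activity, and Nab2 is itself a known EGR target. Nab2 was at 165 and 171 CPM in EV, 93.6 in TC, and 108, 107 and 98.9 in TC + ATA, with the EV libraries well above the rest. It fell in TC (log2 fold change -0.84, SE 0.09, edgeR adjusted p = 0.000132). Nab1 had a log2 fold change of -0.23 in TC (SE 0.09, edgeR adjusted p = 0.105), from 60.5 and 66.5 CPM in EV to 54.1 in TC. A list of 10 genes reported as EGR1 targets went both ways, with 4 higher and 3 lower in TC (14.8% and 13.2% of all genes tested). Its median log2 fold change was 0.593 against -0.026 for all genes tested. The cyclin gene Ccnd1 (1.96) and the growth factor gene Pdgfa (1.35) rose, and the matrix gene Fn1 (-0.83) fell.

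The Ier genes share a name and rapid induction, and the 3 members among them did not move together. Ier2 encodes a nuclear protein and has 1 exon (ENSMUSG00000053560, chr8:84661331-84662852, - strand). Its values were 110.3 and 125 CPM in EV, 41.7 in TC, and 48.7, 51.7 and 57.7 in TC + ATA. The groups did not overlap and stood in the same order as for Egr1. Ier2 fell 2.83-fold in TC (log2 fold change -1.5, SE 0.13, edgeR adjusted p = 3.58e-05).

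Ier3, also known as IEX-1, encodes a small protein linked to cell survival and ERK signaling (ENSMUSG00000003541, chr17:35821684-35822923, + strand, 2 exons). It was at 37.6 and 37.5 CPM in EV, 96.9 in TC, and 96.8, 90.6 and 105 in TC + ATA. The EV libraries were nearly equal and far below the others, and TC lay within TC + ATA. Ier3 rose 2.58-fold in TC (log2 fold change 1.37, SE 0.1, edgeR adjusted p = 1.16e-05), the largest rise of the 10 genes.

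Ier5, whose product acts on the heat shock factor HSF1, is a single-exon gene at chr1:155096361-155099636 (ENSMUSG00000056708, - strand). It was at 159 and 162 CPM in EV, 160.1 in TC, and 164, 168 and 159.7 in TC + ATA, so all 3 groups overlapped. From EV to TC, the log2 fold change was 0.00 (95% interval -0.18 to 0.18, edgeR adjusted p = 0.991), an interval that leaves out changes of the size seen for Ier2 and Ier3. Its paralog Ier5l fell in TC (log2 fold change -0.86, SE 0.08, edgeR adjusted p = 6.52e-05), from 135 and 136 CPM in EV to 74.7. The heat shock genes, which HSF1 activates, did not follow 1 direction: Hsp90aa1 (1.19), Hsph1 (0.76) and Dnajb1 (0.65) rose in TC and Hspa1b (-0.52) fell, while Hspa1a (-0.22) and Hspb1 (0.13) did not pass the test.

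Nr4a1 encodes the orphan nuclear receptor NUR77 and has 8 exons, the most of the 10 genes (ENSMUSG00000023034, chr15:101254269-101274795, + strand). Its values were 73.0 and 70.4 CPM in EV, 44.6 in TC, and 46.7, 49.3 and 52.2 in TC + ATA. TC was below all TC + ATA libraries, and both were below EV. Nr4a1 fell 1.61-fold in TC (log2 fold change -0.69, SE 0.09, edgeR adjusted p = 0.000651). The related receptor gene Nr4a2, at a lower level, fell from 11.2 and 12.1 CPM in EV to 3.08 in TC (log2 fold change -1.92, SE 0.19, edgeR adjusted p = 8.64e-05).

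Dusp1 encodes the MAP kinase phosphatase MKP-1, which acts on p38, JNK and ERK in the nucleus (ENSMUSG00000024190, chr17:26505590-26562128, - strand, 4 exons). It was at 56.0 and 55.5 CPM in EV, 69.2 in TC, and 85.0, 82.1 and 88.0 in TC + ATA. The groups did not overlap and stood in the ascending order EV, TC, TC + ATA. Dusp1 rose 1.24-fold in TC (log2 fold change 0.31, SE 0.08, edgeR adjusted p = 0.0184). This call was the least firm of the 6: it was lost without TC + ATA replicate 1 (0.0522) or 2 (0.0525), with library size scaling (0.123), with the replicate number as a block (0.159), and when EV and TC were fitted alone in edgeR (0.202) or DESeq2 (0.317). The annotated span overlaps Ergic1 on the opposite strand by 11 of 3311 exonic bases, and the use of strand in counting is not stated.

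The phosphatase genes related to Dusp1 that passed the test both rose. Dusp4 (MKP-2) went from 26.6 and 27.6 CPM in EV to 119 in TC and 117, 112 and 108 in TC + ATA (TC versus EV log2 fold change 2.14, SE 0.08, edgeR adjusted p = 6.38e-07). Dusp5, a nuclear phosphatase of ERK, went from 39.0 and 39.5 CPM to 55.7 in TC (0.5, SE 0.13, edgeR adjusted p = 0.0178), and its TC + ATA libraries, at 36.6, 45.6 and 45.6 CPM, did not pass against TC (-0.39, SE 0.12, edgeR adjusted p = 0.304). Dusp2, named after its values were seen, was at 1.54 and 1.88 CPM in EV and 0.576 in TC and did not pass (-1.56, SE 0.52, edgeR adjusted p = 0.0517). In the whole list of 9 paralogs, 8 were tested, and 2 rose and 2 fell in TC (14.8% and 13.2% of all genes tested). The median log2 fold change of the list was -0.406.

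Zfp36 encodes tristetraprolin (ENSMUSG00000044786, chr7:28376784-28380253, - strand, 2 exons). It was at 35.0 and 35.8 CPM in EV, 31.7 in TC, and 31.3, 35.9 and 38.7 in TC + ATA. TC was below the EV pair, but the TC + ATA libraries spanned both. The fitted log2 difference of TC from EV was -0.16 (95% interval -0.44 to 0.12, edgeR adjusted p = 0.38). The gene shares 125 of 3470 exonic bases with Gm44710 on the opposite strand, which had 565 counts in all libraries together.

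Of 10 AU-rich mRNAs that ZFP36 is known to bind, 7 were expressed enough to be tested. In TC, 4 of the 7 rose and 0 fell (14.8% and 13.2% of all genes tested). Plaur (1.88) encodes the urokinase receptor and Cxcl1 (1.48), Ccl2 (1.07) and Ccl7 (0.32) encode chemokines. Ptgs2 (log2 fold change -0.02), Vegfa (-0.21) and Il6 (-0.59) did not pass the test, and Il6 was below 1 CPM. The median of the 7 was 0.318.

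Srf lies at chr17:46548329-46556175 (ENSMUSG00000015605, - strand, 7 exons). It was at 101 and 104 CPM in EV, 101 in TC, and 108, 111 and 105 in TC + ATA. EV and TC overlapped and TC + ATA was slightly above both. Its fitted log2 difference of TC from EV was -0.01 (95% interval -0.19 to 0.17, edgeR adjusted p = 0.931). Among its cofactors, Elk4 rose in TC (0.52, SE 0.1, edgeR adjusted p = 0.00391) and Fhl2 fell (-0.28, SE 0.08, edgeR adjusted p = 0.0353). Elk1 (-0.15), Elk3 (0.13), Mrtfa (0.11) and Mrtfb (0.31) did not pass the test.

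Contractile genes are the other known class of SRF targets, read through actin and the myocardin-related factors. Of 14 such genes, 6 rose and 0 fell in TC (14.8% and 13.2% of all genes tested). Their median log2 fold change was 0.358. The 4 most abundant of those that passed the test were Actb (0.61), Flna (0.65), Myh9 (1.21) and Acta2 (0.62). In TC cells, the change of Srf itself did not pass the test, Egr1 and Egr2 were lower and several contractile genes were higher.

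**Figure D3:**
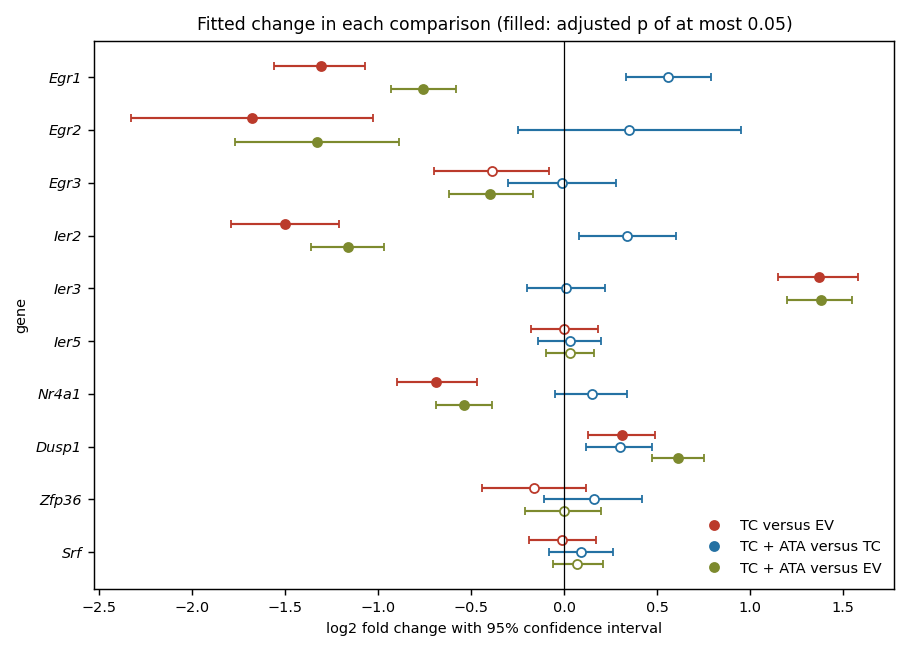
Fitted log2 fold change of each gene (x axis) in the 3 comparisons, with 95% intervals from edgeR. Filled points have an adjusted p of at most 0.05; the TC + ATA versus TC points are all open, and the 2 comparisons with EV have nearly the same value for Ier3 (1.37 and 1.38).

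TC + ATA versus TC asks what the compound changed in cells with the fusion protein. It shares the TC library with TC versus EV, so an extreme value in that library would push the 2 comparisons in opposite directions, and only the values of each are given. None of the 10 genes passed the adjusted test in edgeR, in which 0.583% of all genes did (0.426% higher), and none reached the limit of 2 on the absolute log2 fold change, which 0.0539% of all genes did. At an unadjusted p under 0.05 there were 3, Egr1, Ier2 and Dusp1, each of them higher, where 9.61% of all genes passed in either direction. With DESeq2 on all libraries 1 of the 10 passed (2.76% of the 14585 genes that it gave an adjusted p). When TC and TC + ATA were fitted without EV, 3 passed in edgeR (7.93% of 18000 genes) and 3 in DESeq2 (11.6% of 13114 genes). The last 3 shares are of fewer genes than the 18539 tested in the fit reported.

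Egr1 came closest: it was 1.47-fold higher in TC + ATA (log2 fold change 0.56, SE 0.1, 95% interval 0.33 to 0.79, edgeR adjusted p = 0.0545). It passed in 6 of the 14 alternatives, among them without EV replicate 1 (0.000922) or 2 (0.000827) and in DESeq2 with all libraries (5.18e-05). Over the 14, its log2 fold change ran from 0.46 to 0.6 and its adjusted p from 5.18e-05 to 0.494. Dusp1 (0.3, SE 0.08, edgeR adjusted p = 0.186) and Ier2 (0.34, SE 0.11, edgeR adjusted p = 0.353) each passed in 4 of the 14, which include those without either EV replicate. The EV libraries take no part in the contrast itself but supply part of the spread, and they differ more from each other than the TC + ATA libraries do.

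All 3 TC + ATA libraries lay above TC for 5 of the 10 genes (Egr1, Ier2, Nr4a1, Dusp1 and Srf), against 30.5% of all genes tested, and below TC for 0 of the 10 (32.7%), so that 5 did not overlap (63.2%). For Nr4a1 the log2 fold change was 0.15 (95% interval -0.05 to 0.34, edgeR adjusted p = 0.65) and for Srf 0.09 (-0.08 to 0.26, edgeR adjusted p = 0.777). The other 5 overlapped TC. Their log2 fold changes were 0.35 for Egr2 (95% interval -0.25 to 0.95), 0.16 for Zfp36 (-0.11 to 0.42), 0.03 for Ier5 (-0.14 to 0.2), 0.01 for Ier3 (-0.2 to 0.22) and -0.01 for Egr3 (-0.3 to 0.28). For Ier3, whose level had risen most in TC, the interval leaves out a return to the EV level. For Egr2 the interval is wide enough to hold both no change and an increase as large as that of Egr1.

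Few genes of the related lists passed in TC + ATA versus TC. Of the AP-1 subunit genes, Fos was higher in TC + ATA than in TC (log2 fold change 1.93, SE 0.27, edgeR adjusted p = 0.0194). It was at 5.91 and 7.82 CPM in EV, 1.93 in TC, and 5.84, 7.74 and 8.45 in TC + ATA. Its differences of TC from EV and from TC + ATA both rest on the 1 TC library. Junb resembled Egr1 in its values, with 97.3 and 115 CPM in EV, 44.5 in TC and 55.4, 60.6 and 61.6 in TC + ATA, and did not pass the test against TC (0.41, SE 0.11, edgeR adjusted p = 0.197). Acta2 (0.97, edgeR adjusted p = 0.0303) and Myl9 (1.25, edgeR adjusted p = 0.0103) rose among the contractile genes, and Errfi1, which encodes an inhibitor of EGF receptor family kinases, fell (-0.5, edgeR adjusted p = 0.0426). Nab2 had a log2 fold change of 0.16 (SE 0.08, edgeR adjusted p = 0.598).

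TC + ATA versus EV sets treated fusion-expressing cells against cells with neither, and is the comparison with the most libraries. It found 5 of the 10 genes lower and 2 higher, where 18.6% of all genes were lower, 18.0% higher and 36.6% either (23.6% lower and 14.6% higher with library size scaling). With the limit of 2 there were 0 of the 10 and 3.87% of all genes. The TC + ATA libraries lay below both EV libraries for 5 genes (30.1% of all genes) and above both for 3 (28.7%), Ier3, Dusp1 and Srf, 8 in all (58.8%). Egr1 was 1.69-fold lower (log2 fold change -0.76, SE 0.08, edgeR adjusted p = 6.77e-05), Egr2 2.51-fold (-1.33, SE 0.19, adjusted p = 0.000664) and Ier2 2.24-fold (-1.16, SE 0.09, adjusted p = 1.09e-05). Nr4a1 was 1.45-fold lower (-0.54, SE 0.07, edgeR adjusted p = 0.000265). Egr3 passed here (-0.4, SE 0.1, edgeR adjusted p = 0.0134), though not without TC + ATA replicate 1 (0.0541). Of the EGR corepressors, Nab2 (-0.69, SE 0.06, edgeR adjusted p = 3.84e-05) and Nab1 (-0.2, SE 0.07, edgeR adjusted p = 0.0493) were lower as well.

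Ier3 was 2.6-fold higher in TC + ATA than in EV (log2 fold change 1.38, SE 0.08, edgeR adjusted p = 1.94e-06) and Dusp1 1.53-fold (0.61, SE 0.06, edgeR adjusted p = 7.17e-05). Ier5 (0.03, 95% interval -0.1 to 0.16), Zfp36 (0.00, -0.21 to 0.2) and Srf (0.07, -0.06 to 0.21) did not pass the test. After 48 h of ATA, then, Egr1, Egr2, Ier2 and Nr4a1 were still lower than in EV cells, and Ier3 and Dusp1 higher.

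The 6 libraries also rank genes by how closely they follow Egr1. Among the 4355 genes that averaged 5 CPM or more and ranged over 0.5 or more on the log2 scale, Pearson's r of log2 CPM with Egr1 was highest for 3110040N11Rik (0.996), Epha4 (0.995), Traf5 (0.995), Ift20 (0.995) and B3gnt9 (0.994). The 6 points share their libraries and fall into groups, so these values describe a pattern of levels and nothing more. Epha4, an ephrin receptor gene, was at 11.2 and 11.8 CPM in EV, 2.95 in TC, and 5.23, 5.39 and 5.54 in TC + ATA, the same order as Egr1. Of the members, Ier2 ranked 120 (0.972) and Nr4a1 188 (0.962), so many genes followed Egr1 more closely than these 2 did. Egr2 (0.945) averaged under 5 CPM and was not ranked. Ier3 (-0.882) and Dusp1 (-0.655) ran the other way.

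In a wider list of 30 other immediate early genes, 15 rose and 8 fell in TC, with a median log2 fold change of 0.161, where the median of the 10 genes was -0.274. The 4 most abundant that passed were Mcl1 (0.72), a survival gene of the BCL2 family, Ifrd1 (0.86), Klf6 (0.58) and Myc (0.45). Of the 7 AP-1 subunit genes, 2 rose (Fosl1 and Fosb) and 3 fell (Fos, Junb and Fosl2).

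**Figure D4:**
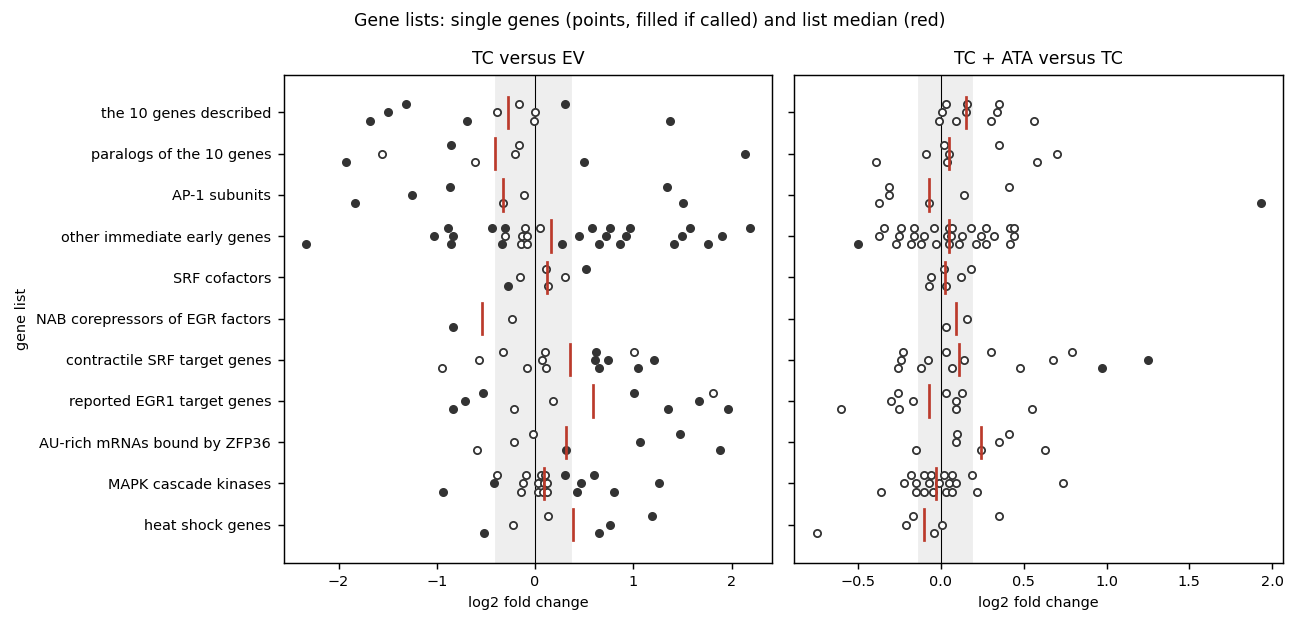
Log2 fold change of the genes of each list (points, filled at an adjusted p of at most 0.05) and the list's median (red line) for the TC library against EV and for TC + ATA against TC. The grey band holds the middle 50% of all genes tested, from -0.4 to 0.37 and from -0.13 to 0.19; the wider list of immediate early genes spreads to both sides in TC versus EV.

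Scaling by library size in place of TMM moved the median of all genes in TC versus EV by -0.108, and the 6 genes that had passed kept their direction. Relative to the median under that scaling, the log2 fold change was -1.29 for Egr1, -1.66 for Egr2, -1.48 for Ier2, -0.66 for Nr4a1, 1.39 for Ier3 and 0.34 for Dusp1. Ier5 (0.02) and Srf (0.01) were at the median.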

How the data were processed

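Gene expression was measured by RNA-Seq of poly(A) RNA in 6 NIH3T3 libraries, grouped and numbered as the labels give them. Paired-end reads were aligned by the authors with HISAT2 2.2.1 (version per the submitters' processing notes) to mm10 (GRCm38.p6), and featureCounts gave a count for every gene. The deposited counts are whole numbers that were not normalized. The annotation release and the use of strand are not given in the sources used here.

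Symbols and positions came from GENCODE M21 (55141 of 55401 IDs matched). Counts were tested in R 4.3.3 with edgeR 4.0.16 (filterByExpr, TMM, glmQLFit, glmQLFTest) in a single model of the 6 libraries with group as the only term and 3 residual degrees of freedom, and Benjamini-Hochberg adjustment over 18539 genes. Standard errors were derived from the F statistic. TC has 1 library, so its spread is taken from the other groups. The study's limits (adjusted p of 0.05 and log2 fold change of 2) and DESeq2 1.42.0 were among the alternatives.

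The members and the gene lists were chosen with earlier results of these data known. Named genes were the 10 members, all genes of lists under 8 genes, and of other lists the genes called, at most 4 a comparison by mean CPM, as well as the 5 genes most correlated with Egr1. A gene that this rule names is not reported here. Motifs were counted in RefSeq promoter windows. Data were simulated for 18539 genes with the mean levels and totals of these libraries, and well-counted genes were changed in TC only. The fit recovered 89 of 100 genes changed 2-fold and 97 of 100 changed 4-fold in TC versus EV, with 10 false calls. In TC + ATA versus TC it recovered 91 and 97, with 11. The simulation gave all groups the same spread. The real pairs were unequal, with a chi-square per degree of freedom of 61.3 for EV and 5.86 to 6.61 for TC + ATA. The recovery and false calls in the real data may therefore differ. With totals of 58471484 to 74413193 counts a library, counting error is small for these genes, and TC has no replicate.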

Additional observations from a re-analysis of the deposited data

How the results depend on the processing

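Over the 14 alternatives and 3 comparisons, the log2 fold changes of the 10 genes gave 420 values, of which 367 kept direction and call, 17 gained a call, 7 lost it and 29 changed sign. Of the 30 pairs of gene and comparison, 16 kept both throughout and 24 kept the call. The call changed for Dusp1 and Egr3 in TC versus EV, Egr3 in TC + ATA versus EV, and Egr1, Ier2 and Dusp1 in TC + ATA versus TC.

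The sign changed in 8 pairs, none of them called under any alternative. In TC versus EV, Ier5 was at 0.01 with RLE size factors, the 5 CPM filter, the replicate block and DESeq2 with all libraries, 0.02 in DESeq2 with only the groups compared, and -0.02 to 0.01 without 1 replicate. Srf was at 0.00 with RLE size factors, the 5 CPM filter and DESeq2 with all libraries, 0.01 with the replicate block and in DESeq2 with only the groups compared, and -0.04 to 0.01 without 1 replicate. In TC + ATA versus TC, Egr2 was at -0.02 with the replicate block (0.35 in the fit reported). Egr3 was at 0.01 with library size scaling, 0.00 with the 5 CPM filter and in edgeR with only the groups compared, and -0.06 to 0.06 without 1 replicate. Ier3 was at -0.02 with the replicate block and -0.05 to 0.06 without 1 replicate. In TC + ATA versus EV, library size scaling gave -0.06 for Ier5 and -0.01 for Srf. Zfp36 was at 0.01 with RLE size factors and in DESeq2 with all libraries or only the groups compared, 0.02 with the 5 CPM filter, 0.00 in edgeR with only the groups compared, and -0.07 to 0.08 without 1 replicate.

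In TC versus EV, 2 of the genes were called higher in the fit reported. This became 1 with library size scaling, with the replicate block, and with only the groups compared in edgeR or DESeq2, and 1 to 2 without 1 replicate (1 without TC + ATA replicate 1 or 2). A limit of 2 on the absolute log2 change left 0 higher and 0 lower. Genes called among all genes went from 5191 to 3184 with the replicate block, 2439 in DESeq2 with only the groups compared, and 674 under the limit of 2.

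In TC + ATA versus TC, the genes called higher went from 0 to 1 with no low-count filter or in DESeq2 with all libraries, to 3 in edgeR or DESeq2 with only the groups compared, and to 0 to 3 without 1 replicate. All genes called went from 108 to 350 with no filter, 403 in DESeq2 with all libraries, 1428 in edgeR and 1527 in DESeq2 with only the groups compared, 40 with the replicate block, 10 under the limit of 2, and 10 to 1469 without 1 replicate (1469 and 1416 without EV replicate 1 or 2, and 40, 28 and 10 without TC + ATA replicate 1, 2 or 3). Without 1 EV replicate, the lone EV library is assumed to vary like the others. In TC + ATA versus EV, the limit of 2 left 0 higher and 0 lower of the genes and 717 of 6789 among all. The causes were not tested.

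The fit reported did not treat replicate numbers as pairs. The deviations of same-numbered EV and TC + ATA libraries had correlations of -0.029 and -0.0861 across genes. With 2 EV libraries the deviations mirror each other, and TC has 1 library, so these values cannot show whether samples were paired. The TC library could not be left out, since no comparison with TC would remain. Counting error is small at this depth for these genes, and the lowest, Egr2, had 139 to 688 counts a library.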

Other observations

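The MAP kinase cascades carry most of the signals that induce immediate early genes. Among 20 of their kinases and small GTPases, 6 rose and 2 fell in TC versus EV in edgeR (14.8% and 13.2% of all genes tested). The median log2 fold change of the 20 was 0.087. The 4 most abundant of those that passed were Map2k3 (1.26), which activates p38, Mapk14 (0.3), which encodes p38 alpha, Nras (0.47) and Map2k1 (0.6). All 4 rose. The 2 that fell, named after their values were seen, were Mapk3 (-0.42) and Map2k6 (-0.94). In TC + ATA versus TC the median was -0.03. These are mRNA levels, and kinase activity was not measured in these libraries.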
